A study of Danio rerio with 20 samples.

Results

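Whole embryos at 28 hpf (hours post fertilisation) that lacked functional *rnaset2* were compared with WT siblings of the same age. The comparison used the 8 arrays whose titles carry the hpf stage, 4 of *rnaset2* mutants and 4 of WT siblings, out of 20 arrays in the series. The other arrays hold mutants and WT siblings as 3 dpf larvae (3 and 3) and as dissected brains of adults 1 year old (3 and 3). The mutants carried the ENU-induced AO127 allele of *rnaset2*, and each embryo sample was RNA of pooled embryos taken out of the chorion. Replicates were numbered 1, 1.1, 2 and 3 in both genotypes. One label field gives this stage as 28 hpf and another as 28 dpf, and the paper's 28 hpf was used here. The sources do not tell whether 1.1 repeats the sample numbered 1, nor how the arrays divide between clutches, and p-values therefore cover only the scatter of these samples, which may be partly technical.

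RNASET2 is a ribonuclease of the T2 family that works in acidic compartments, chiefly the lysosome, where it digests RNA taken up by the cell or delivered by autophagy. In zebrafish its loss leaves undigested ribosomal RNA in lysosomes of the brain, and in humans loss of RNASET2 causes an infantile leukoencephalopathy. A zebrafish embryo at this stage has finished laying down its body axis and has a beating heart and circulating primitive macrophages, while the colonisation of the brain by microglia takes place on the following days.

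The measurements are one-colour Agilent fluorescence intensities on 43603 probes. The authors deposited them after quantile normalization and without a log, so all arrays share nearly the same distribution of values and a shift of the whole transcriptome cannot be seen. The intensities at 28 hpf ran from 2.14 to 589725 with a median of 257.7. No table used here pairs the probes with genes. The expression of *rnaset2* itself, the markers of embryonic tissues and the genes of the lysosome were therefore not analysed here, and every count below is of probes. In RNA of whole embryos, fewer cells of a type and less RNA per cell cannot be told apart.

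The genotypes formed separate groups of arrays. Pearson's r over all probes was 0.994 to 0.996 between mutant arrays, 0.992 to 0.994 between WT arrays and 0.983 to 0.987 between a mutant and a WT array. For comparison, the same 8 arrays correlated at 0.922 to 0.965 with the 3 dpf arrays and at 0.751 to 0.777 with those of adult brain. Of the total sum of squares at 28 hpf, 55.0% lay between the genotypes. The first principal component, with 55.3% of the variance, placed the mutants at 47 to 60.6 and the WT siblings at −59.7 to −51.1. The second component (11%) set WT 2 apart at 56.8, whereas the other 7 arrays lay between −28.6 and 14.3.

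**Figure D1:**
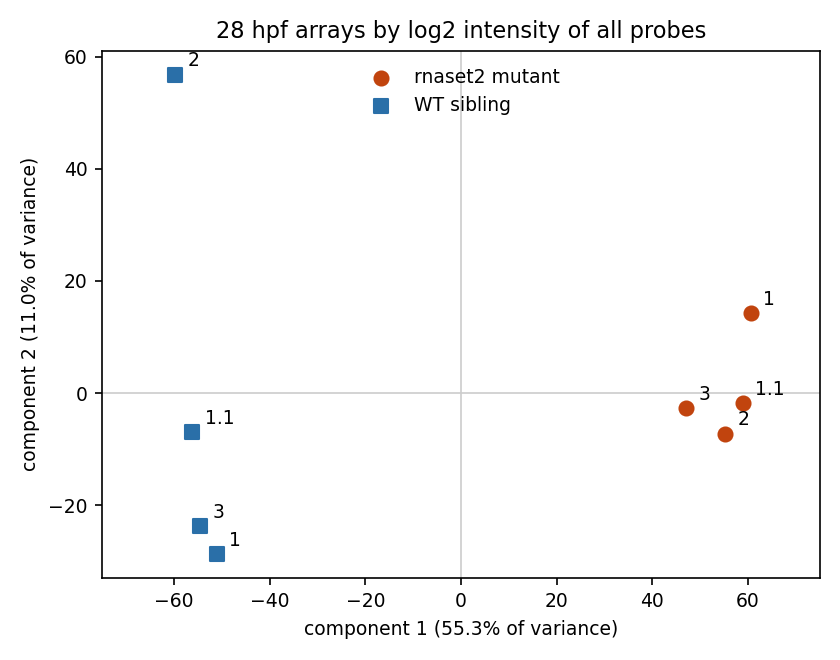
Principal components 1 and 2 of the log2 intensities of all probes on the 8 arrays at 28 hpf, 1 point per array with its replicate number (circles, *rnaset2* mutants; squares, WT siblings). The genotypes are apart on component 1, and WT 2 is apart from the other 7 arrays on component 2.

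Replicates 1 and 1.1 were the most similar pair in each genotype by a narrow margin. The SD of the log2 difference between them was 0.325 for mutants, where the other pairs had 0.337 to 0.398. For WT siblings it was 0.389, where the other pairs had 0.392 to 0.457. They were kept as separate samples. Some counts, among them that of the probes called and those at 2-fold and 8-fold, are also given without replicates 1.1 of both genotypes.

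The mutant and WT arrays differed in 18954 of 43603 probes (43.5%) in limma's moderated test on log2 intensities (n = 4 and 4, Benjamini-Hochberg adjusted p under 0.05). Of these, 10001 (22.9% of all probes) were higher and 8953 (20.5%) were lower in mutants. With replicates 1.1 left out of both genotypes (n = 3 and 3), 13064 probes were called, 6679 higher and 6385 lower. Of those, 12853 were also called with all 8 arrays, each in the same direction, which is 98.4% of the calls without 1.1 and 67.8% of the calls with it. The arrays without 1.1 are part of the 8, so the shared direction was largely built in. At an unadjusted p under 0.05, 22267 probes passed. The genotypes did not overlap, every mutant array being above or every one below the 4 WT arrays, for 18801 probes (43.1%), among them 17522 of the probes called (92.4%).

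Most of the differences were small. The median absolute log2 fold change was 0.39 among the probes called and 0.22 among all probes, and 13458 of the called probes (71.0%) changed by less than 1.5-fold. The median log2 fold change over all probes was 0.0095. The median SE was 0.073 on the log2 scale over all probes, and the smallest change called was 0.097. By 2-fold or more, 1092 probes rose (2.5% of all probes) and 1074 fell (2.46%). Without replicates 1.1, these counts were 972 and 1024.

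The balance of rises and falls shifted with the size of the change. At 4-fold or more, 150 probes rose and 217 fell. At 8-fold or more the counts were 31 (0.0711% of all probes) and 77 (0.177%), and without replicates 1.1 they were 31 and 80. At 16-fold or more, 9 rose and 39 fell, and at 32-fold or more 5 rose and 21 fell. Most of these large ratios involved a probe that was dim in one genotype. The dimmer genotype averaged an intensity below 50 for 27 of the 31 rises and 69 of the 77 falls. Only 9 of the rises and 30 of the falls reached the median intensity of 257.7 in the brighter genotype. When 50 was added to every intensity before the log, which damps ratios between dim values, 30 of the 31 rises and all 77 falls were still called. On that scale 6 probes rose and 9 fell by 8-fold or more, and 312 rose and 464 fell by 2-fold or more.

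**Figure D2:**
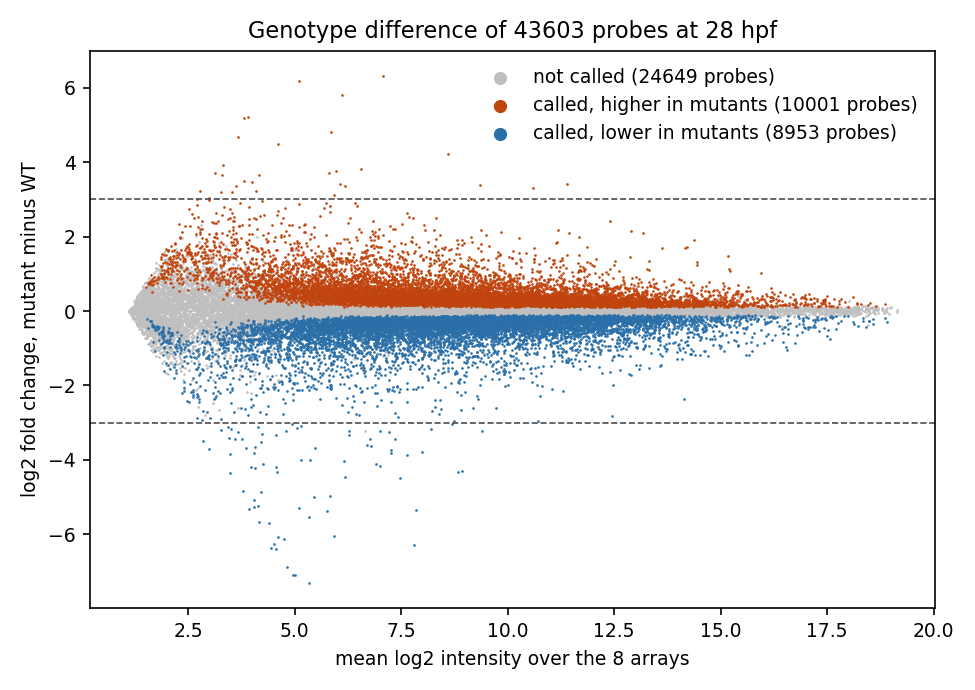
Log2 fold change (mutant minus WT, y axis) of each of the 43603 probes against its mean log2 intensity over the 8 arrays (x axis), with probes called higher, called lower and not called in 3 colours and dashed lines at 8-fold. Calls reach from the dimmest to the brightest probes, and the 77 falls of 8-fold or more lie farther out than the 31 rises.

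The share of probes called depended on brightness. The probes were divided into 10 equal classes by mean intensity. Among the dimmest 10%, with a mean intensity of 2.15 to 7.99, 9.7% were called and the median SE was 0.299. From the fifth to the ninth class the share called lay between 51.0% and 54.8%. In the brightest class, from 6744 to 575008, it was 42.7% with a median SE of 0.049, and there 16 probes rose and 40 fell by at least 2-fold. In the dimmest class these counts were 171 and 82. Which of the dim probes lay above background is not known, since no reading of it was used. Of the 24649 probes that were not called, 18439 (74.8%) had a 95% confidence interval that stayed within a 1.5-fold change either way. For 3326 of them the interval reached past 2-fold, so a change of that size was not excluded by these arrays.

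The probe with the largest rise was A_15_P385830. Its intensities were 1130, 1126, 1320 and 1246 in mutants 1, 1.1, 2 and 3, against 18.8, 10.0, 19 and 14.7 in the WT siblings of the same numbers. All mutants lay far above all WT siblings, with little spread among the mutants and a range of 10.0 to 19 among the WT siblings. The log2 fold change was 6.31 (SE 0.20, adjusted p = 1.0e-06 in limma) and was 4.26 with 50 added to the intensities. The rise was smaller at the later stages. At 3 dpf the probe averaged 502 ± 138 (SD, n = 3) in mutants and 47 ± 8.02 in WT siblings, and in adult brain 1619 ± 262 and 893 ± 184. The WT level thus lay lowest at 28 hpf, while the mutant level at 28 hpf was between its levels at the later stages. The effect at 28 hpf exceeded that at 3 dpf by 2.92 and that in adult brain by 5.45 on the log2 scale, both past the test of the difference over all 20 arrays.

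The second rise, A_15_P182221, was uneven among the mutants. Its intensities were 730, 707, 447 and 30.1 in mutants 1, 1.1, 2 and 3, and 6.49, 6.93, 2.45 and 2.37 in the WT siblings. Mutant 3 lay well below the other mutants and still above every WT sibling. The log2 fold change was 6.17 with an SE of 1.05 (adjusted p = 0.0023 in limma), and 7.25 without mutant 3. With mutant 3 as the only mutant array it was 2.91 and the call was lost (adjusted p = 0.078, taking mutant 3 to vary like the other arrays). At 3 dpf this probe averaged 3100 ± 228 in mutants and 79.0 ± 16 in WT siblings. In adult brain it was among the brightest on the array, at 401975 in mutants and 406001 in WT siblings, and did not pass the test (adjusted p = 0.91). Of those 6 arrays, 3 read exactly 401646, as quantile normalization gives the same value to the same rank, so the adult fold of so bright a probe reflects its rank only.

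The probe with the largest fall was A_15_P110114. It measured 3.82, 2.95, 2.92 and 3.34 in mutants 1, 1.1, 2 and 3, near the lowest values on the arrays, and 393, 432, 737 and 529 in the WT siblings. The log2 fold change was −7.29 (SE 0.20, adjusted p = 6.1e-07 in limma), or −3.39 with 50 added. It was also low in the 3 dpf mutants, at 2.81 where WT siblings had 104.5, and the log2 fold change was −5.17. In adult brain 1 of the 3 WT samples measured 235 and the others 3.14 and 3.08, so the mean difference of −2.02 was not called there (adjusted p = 0.48). Since the mutant means were near the lowest intensities at all 3 stages (3.26, 2.81 and 3.28), the size of each fold was set by the WT level and by that floor. The effects at 28 hpf and 3 dpf differed by −2.12, which did not pass the test (adjusted p = 0.25), and those at 28 hpf and in adult brain by −5.28, which did. The test takes a common variance from all stages, so the scatter of the adult WT samples entered its SE of 1.41. In the separate fits the SE was 0.20 at 28 hpf, 0.21 at 3 dpf and 1.75 in adult brain. The missed threshold therefore does not show that the effects at 28 hpf and 3 dpf were alike.

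A_15_P101664 fell almost as far at 28 hpf but not at the later stages. The mutants measured 2.70, 2.56, 2.57 and 2.86, and the WT siblings 441, 440, 254 and 358. The log2 fold change was −7.09 (SE 0.17, adjusted p = 3.9e-07 in limma), or −2.98 with 50 added. At 3 dpf the mutants averaged 250.4 and the WT siblings 399.8, a log2 fold change of −0.69 that passed the test. In adult brain the probe was dim in both genotypes, at 30.9 and 17.9. The effect at 28 hpf minus that at 3 dpf was thus −6.40, and minus that in adult brain −8.20, on the log2 scale, and both differences passed the test. The WT mean at 28 hpf, 373.2, was close to that at 3 dpf, and the mutant means of these stages were far apart.

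**Figure D3:**
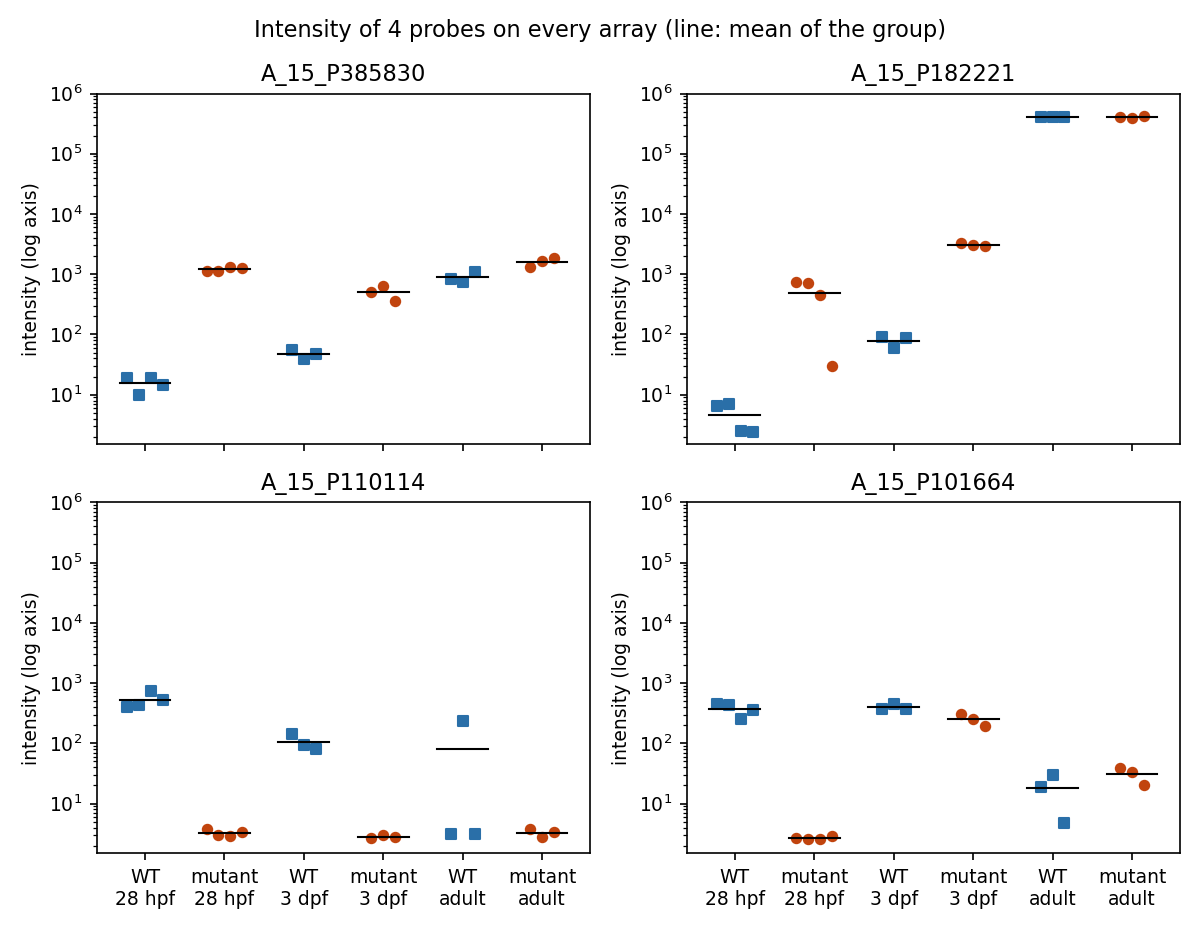
Intensity on a log axis of the 2 probes with the largest rise (top) and the 2 with the largest fall (bottom) on each of the 20 arrays, by stage and genotype (circles, mutants; squares, WT siblings; line, mean of the group). At 28 hpf the genotypes do not overlap for any of the 4 probes, and mutant 3 is apart from the other mutants for A_15_P182221.

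Leaving out replicates 1.1 changed these values little. The log2 fold changes were then 6.14 and 6.0 for A_15_P385830 and A_15_P182221, and −7.32 and −6.98 for A_15_P110114 and A_15_P101664. All 4 probes were still called in limma, with A_15_P182221 nearest to the threshold (adjusted p = 0.019).

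The next probes in order of size were taken among those that were called, did not overlap between genotypes and reached the median intensity in the brighter genotype. The 12 largest rises had log2 fold changes of 2.50 to 6.31, and the 12 largest falls −7.29 to −4.45. All 24 were called with 50 added as well. Of the 12 rises, 11 were also called higher in 3 dpf mutants (23.8% of all probes were) and 8 in mutant adult brain (8.49%), with none called lower at either stage. The rise at 28 hpf exceeded that at 3 dpf for 9 of them, and that in adult brain for 8, by the test of the difference, which 44.7% and 31.9% of all probes passed in either direction. Of the 12 falls, 10 were called lower (30.8% of all probes were) and 1 was called higher in 3 dpf mutants. In mutant adult brain 2 of these falls were called lower (7.6%) and none higher. The log2 fold changes of those not called there ran from −2.85 (SE 1.51, A_15_P696186) to 1.88 (SE 1.55, A_15_P251656). Their SEs reached 1.81 (A_15_P679473), so a missing call does not show that the fall was absent in adult brain. By the test of the difference, the fall at 28 hpf was larger than that at 3 dpf for 7 and than that in adult brain for 10. These probes were chosen by their size at 28 hpf, which by itself favours a larger effect there than at another stage. The brightest of the rises measured 9862, 10300, 8771 and 6688 in mutants and 923, 965, 707 and 761 in WT siblings, and its log2 fold change was 3.40. The ninth in order, which measured 5421, 5688, 4897 and 3635 in mutants and 555.5, 562.7, 421.0 and 428.8 in WT siblings, shared its profile down to the lower value in mutant 3. The eighth, A_15_P184851, was alike as well, at 2372, 2371, 2215 and 1619 in mutants and 225, 233, 171 and 190 in WT siblings. Whether such probes share a gene is not known here, and the counts above take each of them as separate.

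Some probes were near the bottom of the scale in every mutant. In 14 probes all 4 mutants measured below 10 and all 4 WT siblings above 100, and no probe showed the reverse. Their mutant values ran from 2.37 to 9.50 and their WT values from 114.1 to 736.9. With limits of 20 and 200 instead, 12 probes were near the bottom in all mutants and 3 in all WT siblings. The 14 probes had log2 fold changes of −7.29 to −5.30, or of −3.39 to −1.76 with 50 added. Since low values chose them, these folds are a description.

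At the later stages, which had no part in choosing them, the 14 probes went different ways. At 3 dpf 12 were called lower in mutants and none higher, beside 30.8% of all probes called lower in the fit of the 6 arrays of 3 dpf alone. Of them, 5 were again below 10 in all mutants and above 100 in all WT siblings. In adult brain 2 were called lower and none higher (7.6% of all probes were called lower there), and only 1 met both limits in that tissue. No probe met them at all 3 stages. How many of all probes met these limits at 3 dpf or in adult brain was not counted, so these counts are a description. The mutant mean was above 100 for 3 of the 14 at 3 dpf and for 2 in adult brain, so those probes gave signal in mutants at another stage. For A_15_P110114, A_15_P696186, A_15_P178166, A_15_P759426, A_15_P400410 and A_15_P631931 the mutant mean stayed below 10 at both later stages. Their WT means ran from 50.5 to 217.0 at 3 dpf and from 62.9 to 611.4 in adult brain. Among them, only A_15_P178166 was called lower in adult brain, at 2.41 in mutants and 393.3 in WT siblings (adjusted p = 4.3e-05 in limma). The WT samples of adult brain scattered widely for A_15_P110114 (3.14, 235 and 3.08) and A_15_P696186 (62.9 ± 66.9, SD). Their WT means in that tissue are therefore not a steady level. The genotype effect at 28 hpf differed from that at 3 dpf for 7 of the 14, near the 44.7% of all probes, and from that in adult brain for 11, beside 31.9% of all probes. Their choice by extreme values at 28 hpf favours such differences. Scatter among the adult arrays works the other way, since the test takes a common variance from all stages. For A_15_P696186 the separate fits gave −6.88 (SE 0.072) at 28 hpf and −5.21 (SE 0.087) at 3 dpf. Its SE in adult brain was 1.51, and the difference between 28 hpf and 3 dpf did not pass (adjusted p = 0.28 in limma). A probe outside the 7 is thus not shown to have like effects at 28 hpf and 3 dpf.

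Most of the large changes at 28 hpf had the same direction in 3 dpf larvae. The stages have no array in common, and each later stage was fitted on its own 6 arrays. Of the 31 probes that rose by 8-fold or more, 26 were called higher in 3 dpf mutants (83.9%), 1 was called lower and 4 were not called, beside 23.8% of all probes called higher at that stage. Of the 77 that fell by 8-fold or more, 59 were called lower (76.6%), 5 higher and 13 not, beside 30.8% of all probes called lower. Among the 942 probes that rose by 2- to 4-fold, 58.1% were called higher and 9.24% lower at 3 dpf. Among the 2503 smallest rises, below 0.25 on the log2 scale, 26.0% were called higher and 32.8% lower, close to the shares for all probes. The smallest falls, 1915 probes, were called lower at 3 dpf in 45.9% and higher in 15.4%.

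In adult brain fewer probes were called over all. Of the 31 rises, 13 were called higher in mutant brain (41.9%, beside 8.49% of all probes) and 3 lower. Of the 77 falls, 27 were called lower (35.1%, beside 7.6%) and 4 higher, and 46 were not called. The direction was the same as at 28 hpf for 90.7% of the 108 probes at 3 dpf and for 78.7% in adult brain, called or not. Among all 18954 probes called at 28 hpf, these shares were 62.5% and 61%. The effect at 28 hpf differed from that at 3 dpf for 76 of the 108 and from that in adult brain for 75, in probes chosen by their size at 28 hpf. Over all probes, the genotype effect differed between 28 hpf and 3 dpf for 19475 (44.7%) and between 28 hpf and adult brain for 13902 (31.9%).

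**Figure D4:**
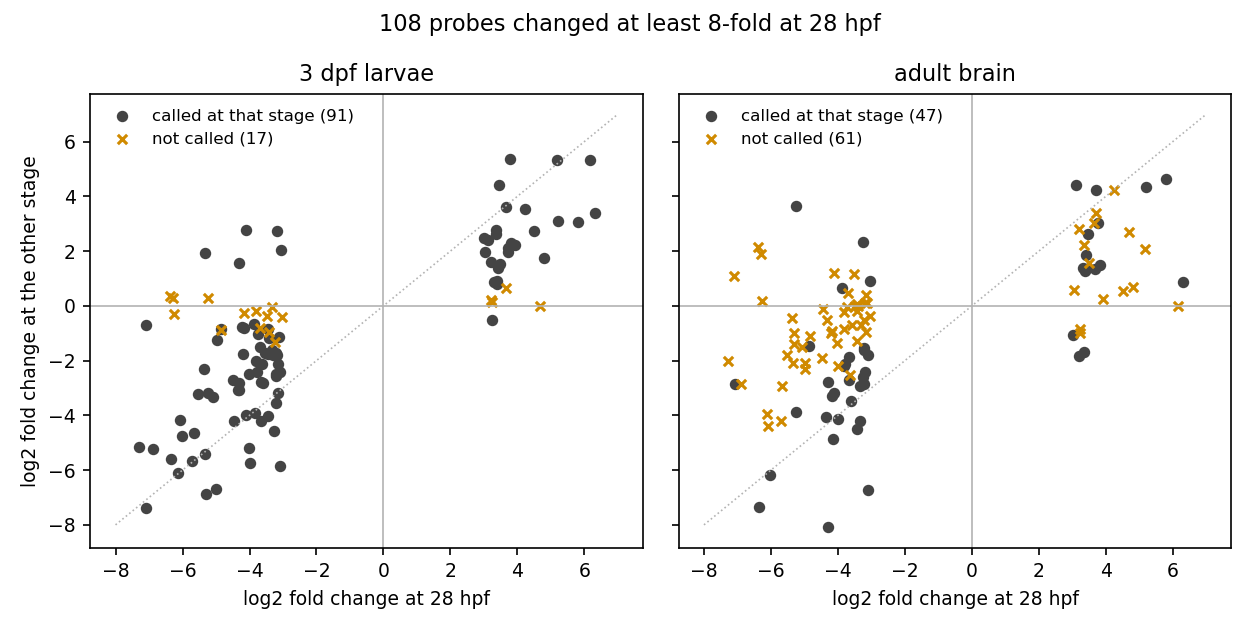
Log2 fold change (mutant minus WT) of the 108 probes changed at least 8-fold at 28 hpf (x axis) against their log2 fold change in 3 dpf larvae (left) and adult brain (right), with circles for probes called at the later stage, crosses for those not called and a dotted line of equal change. At 3 dpf 91 of the 108 were called, 85 of them in the direction seen at 28 hpf, and in adult brain 47 were called, 40 of them in that direction.

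The calls of any size were also set beside the later stages, where 23.8% of all probes were called higher and 30.8% lower at 3 dpf, and 8.49% and 7.6% in adult brain. Of the 10001 higher probes, 3756 (37.6%) were called higher and 2267 (22.7%) lower at 3 dpf, and 1376 (13.8%) higher and 487 (4.87%) lower in adult brain. Of the 8953 lower probes, 4199 (46.9%) were called lower and 1573 (17.6%) higher at 3 dpf, and 1323 (14.8%) lower and 580 (6.48%) higher in adult brain.

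The direction of the calls at 28 hpf followed the level of a probe in other WT samples. Probes were sorted by the difference between WT adult brain and WT 3 dpf larvae, which uses no array of 28 hpf and no mutant. Among the 2248 probes over 16-fold brighter in the larvae, 378 (16.8%) were called higher and 836 (37.2%) lower in 28 hpf mutants. Among the 1049 probes over 16-fold brighter in adult brain, 269 (25.6%) were higher and 118 (11.2%) lower. Probes within 2-fold lay between, at 22% and 19.3%, close to the 22.9% and 20.5% of all probes. The median log2 fold change went from −0.10 in the first class to 0.086 in the last. The shift was slight for a single probe, since the correlation of the 2 measures over 43603 probes, which share arrays and are not independent, was r = 0.127 (rho = 0.129). The falling share of lower calls from larval to brain classes was also seen among the brighter and among the dimmer probes taken apart (37.8% to 14.9%, and 34.8% to 10.7%), with 50 added (40.0% to 10.9%) and without replicates 1.1 (28.1% to 8.48%). The share of higher calls went from 16.6% to 41.8% among the brighter and from 17.6% to 23.1% among the dimmer probes. It went from 18.1% to 24.9% with 50 added and from 11.3% to 19.2% without replicates 1.1. Over all probes this share did not keep rising through the brain classes. It was 26.2%, 26.9% and 25.6% for probes 2- to 4-fold, 4- to 16-fold and over 16-fold brighter in brain. The same classes had 27.7%, 27.4% and 24.9% with 50 added. It kept rising among the brighter (34.6%, 40.4% and 41.8%) and the dimmer probes (20.6%, 22.2% and 23.1%), and without replicates 1.1 (17.6%, 18.8% and 19.2%). With 50 added, the median log2 fold change was −0.084 in the first class and only 0.024 in the last. Over all probes, the share called in either direction also fell, from 54% to 36.9%. These classes were set with the data known and carry no test.

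The shift was present on each mutant array. The mean log2 intensity of the larval class was 10.62, 10.62, 10.65 and 10.74 in mutants 1, 1.1, 2 and 3 and 10.83, 10.83, 10.83 and 10.84 in WT siblings. That of the brain class was 4.96, 5.00, 4.95 and 4.89 in mutants and 4.77, 4.77, 4.81 and 4.81 in WT siblings. The genotypes did not overlap in either class, with mean differences of −0.17 and 0.16, and mutant 3 was the closest of the mutants to the WT siblings in both (−0.096 and 0.10).

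Some probes that are very bright in adult brain were higher in mutants, and the brightest of them most of all in mutants 1, 1.1 and 2. By WT adult brain means of 5000 or more and means under 50 in both genotypes at 3 dpf, 15 probes were selected, again without any array of 28 hpf. At 28 hpf 7 of the 15 were called higher in mutants (22.9% of all probes were) and none lower, with log2 fold changes of 0.70 to 2.69. For 5 of the 15 the mutants all exceeded the WT siblings, beside 22.7% of all probes. The 8 that were not called had log2 fold changes of −1.41 to 0.29, below 0 in 6 of them. Mutants 1, 1.1, 2 and 3 exceeded every WT sibling for 10, 7, 8 and 5 of the 15. The share of all probes for which a single mutant does so was not computed and is at least the 22.7% above. Mutant 3 was the lowest of the mutants for 6 of the 7 called. The 4 brightest in adult brain, all among those called, ran from 78.4 to 125.9 in mutant 1, 75.4 to 114.3 in mutant 1.1, 55.7 to 89.3 in mutant 2, 14.3 to 35.4 in mutant 3 and 6.08 to 48.3 in the WT siblings. A_15_P182221, which was very bright in adult brain, also measured more in mutants 1 and 1.1 than in mutant 2, and least in mutant 3. The part of this pattern in the results at 28 hpf was not tested. Among the 31 rises of 8-fold or more, 3 were over 16-fold brighter in WT adult brain than in WT larvae (2.41% of all probes were), as were 2 of the 77 falls.

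**Figure D5:**
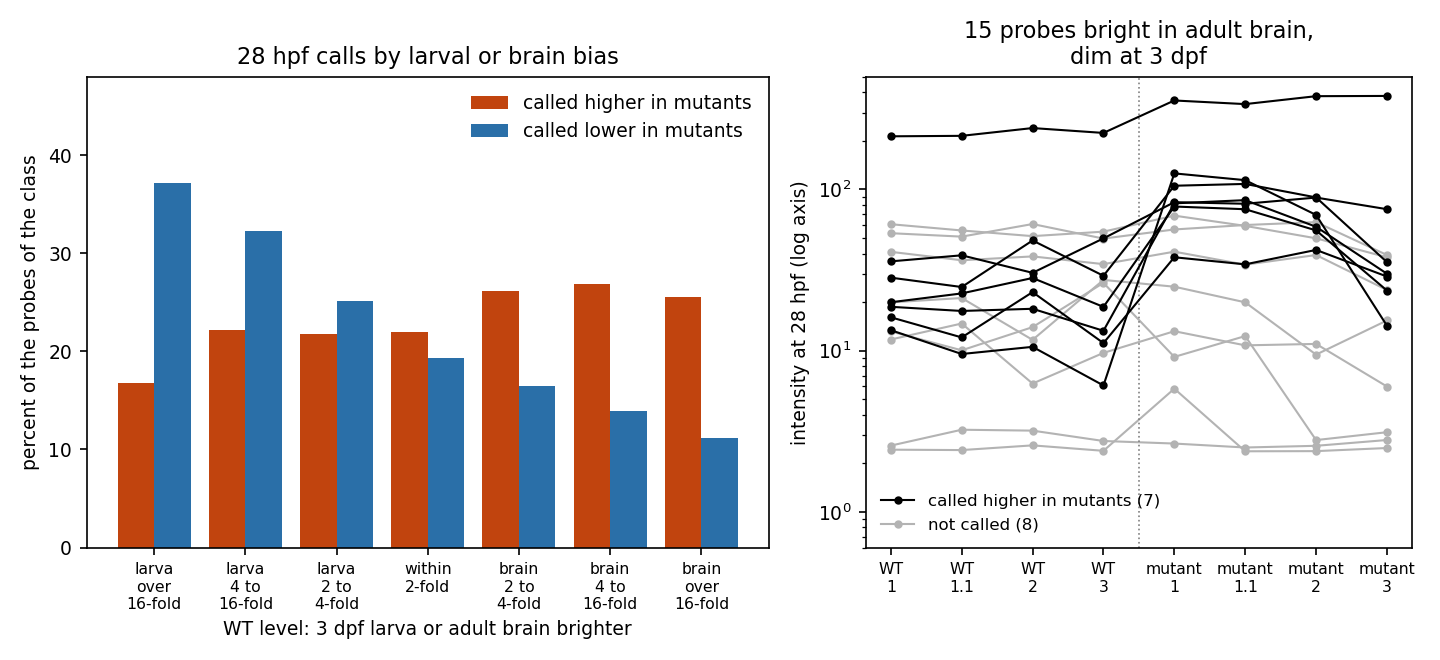
Left, percent of probes called higher or lower at 28 hpf in classes of the WT ratio between 3 dpf larvae and adult brain. Right, intensity on a log axis on each 28 hpf array of the 15 probes bright in adult brain and dim at 3 dpf, with the 7 called higher in mutants in black, mutant 3 being the lowest of the mutants for 6 of them, and the 8 not called in grey.

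Of the 108 probes changed at least 8-fold, which mutant 3 itself helped to select, mutant 3 taken alone was 8-fold or more above the WT mean for 22 of the 31 rises and 8-fold or more below it for 68 of the 77 falls. In limma with mutant 3 as the only mutant array, 6367 probes were called, 3058 higher and 3309 lower, and 1727 by at least 2-fold.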

How the data were processed

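RNA of pooled 28 hpf embryos was hybridised to one-colour arrays. The authors deposited fluorescence intensities that they had quantile normalized; the sources used here state no slide, scanner or background setting. They re-annotated the probes on danRer11, a step that was not repeated because no table pairing probes with genes was used. Gene lists, *rnaset2* levels, markers, chromosome positions and the choice of 1 probe per gene were not run, and a plan written for genes was applied to probes.

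From the deposited intensities, log2 values of the 8 arrays were fitted with limma 3.58.1 in R 4.3.3 (genotype means, mutant minus WT, no filter, no block, 6 residual and 1.62 prior degrees of freedom), two-sided, with Benjamini-Hochberg adjustment over 43603 probes and a threshold of 0.05. The effects of stages were compared in a fit of 6 group means over 20 arrays. That fit has a common variance for each probe, so scatter at any stage enters every difference between stages. The fit was checked in a self-test. The number of arrays limits the precision.

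Same-numbered mutant and WT arrays had residual correlations of −0.045 to 0.023. No pairing by number was seen, but so few arrays per genotype cannot exclude it, and the sources do not say what the numbers stand for. The named probes are the 2 largest rises and 2 largest falls among called probes whose genotypes did not overlap and whose brighter genotype averaged at least the median intensity. Probes, classes and lists were chosen with earlier results of these data known. Alternatives covered replicates 1.1, single arrays, a block, the scale, dim probes, normalization, the variance model, array weights and thresholds.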

Additional observations from a re-analysis of the deposited data

Results flagged for a closer look

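For A_15_P182221, mutant 3 stood apart from the other mutants on the log2 scale, with a gap to the nearest of them of 0.846 of the range of the 4 values. Chance sets apart about 1 in 20 groups in this way.

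The genotype effect of several named probes differed between stages by limma's test of the difference over all 20 arrays. For A_15_P385830 the effect at 28 hpf minus that at 3 dpf was 2.92 on the log2 scale, and minus that in adult brain 5.45. For A_15_P182221 the difference from adult brain was 6.18, with adult values near the top of the scale that reflect its rank only. For A_15_P110114 it was −5.28, a size set by the floor that the mutants reach at every stage and by the WT level. For A_15_P101664 the difference was −6.40 from 3 dpf and −8.20 from adult brain. Over all probes, 19475 differed from 3 dpf and 13902 from adult brain in their genotype effect.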

How the results depend on the processing

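The count of 18954 probes kept within 1.5 times under most alternatives. Leaving out 1 array at a time gave 15982 to 18293 probes, and 2044 to 2312 for changes of at least 2-fold. Testing only probes at or above the median mean intensity gave 12613, of which 616 changed at least 2-fold (243 higher, 373 lower), from fewer probes tested. Asking for at least 1.5-fold left 5496. Adding 50 to the intensities left 776 changes of 2-fold (312 higher, 464 lower), since it shrinks ratios of dim probes. Mutant 3 alone gave 6367, an alternative chosen after seeing the data, from fewer arrays. No pairing by number was seen (0 of 4 mutants correlated best with their own number), and the replicate block gave 16598 and 2118.

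Averaging 1 with 1.1 gave 13992, an adjusted p under 0.01 gave 12741 and array weights gave 22417. The named probes kept their direction in all 74 refits and their call in 73, the exception being A_15_P182221 with mutant 3 alone. The refits reuse the arrays on which these probes were chosen as extreme, and that choice largely fixed the direction. Leaving out 1 array moved the log2 fold changes of the named probes between 6.11 and 6.42 (A_15_P385830), 5.72 and 7.25 (A_15_P182221), −7.41 and −7.11 (A_15_P110114), and −7.27 and −7.00 (A_15_P101664). The counts of effects that differ between stages were 20348 and 15483 with 50 added, and 17167 and 11162 without 1.1. Using 1 probe per gene was not run, since probes were not paired with genes. Dim probes limit the large folds: their floor is not known.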
